A study of Mus musculus with 12 samples.

Results

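The RNA of 10 genes that cells use to show fragments of their own proteins on MHC class I was followed in mouse CD4+ T cells: B2m, H2-K1, H2-D1, Tap1, Tap2, Tapbp, Nlrc5, Psmb8, Psmb9 and Psmb10. The genes were taken by name as members of the pathway, with earlier results of these data known. All 10 were among the 23479 gene symbols listed, and all 10 were among the 10981 genes with enough reads to test. Over 24 h of stimulation Tap1, Tap2, Tapbp, Nlrc5 and Psmb8 rose, the classical heavy chains H2-K1 and H2-D1 fell, and B2m, Psmb9 and Psmb10 did not pass the test, in both genotypes. Loss of Sirt2, a gene for an NAD-dependent deacetylase, gave no member that passed at either time.

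MHC class I molecules carry short peptides to the cell surface, where CD8+ T cells read them. Proteasomes cut proteins into peptides, and the inducible catalytic subunits of the immunoproteasome change which bonds are cut. The TAP transporter moves the peptides into the endoplasmic reticulum, where tapasin holds empty class I molecules beside it until a fitting peptide binds to the heavy chain and β2-microglobulin. NLRC5 drives transcription of many of these genes in lymphocytes, and interferon gamma raises them in most cell types.

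The cells were CD4+ T cells from spleen, purified by removing the other cell types, with a purity over 95% by flow cytometry per the labels. The mice were C57BL/6J wild type (WT) or Sirt2-/- (KO), both on the C57BL/6 background. Cells of each genotype gave RNA without culture (0 h) or following 24 h in wells coated with 5 µg/ml of the anti-CD3 antibody 145-2C11, which crosslinks the T cell receptor complex. This gave 4 groups of 3 libraries, 2 at 0 h (WT 0 h and KO 0 h) and 2 at 24 h (WT 24 h and KO 24 h). The labels name no costimulus, and they do not say in which cells or by which allele Sirt2 was lost. Nor do they state whether each library is a different mouse, so the p-values reflect library-to-library spread only, part or all of which can be technical. No unstimulated cells cultured for 24 h were analysed here, so culture and anti-CD3 cannot be told apart.

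Each library held 3.63 to 10.0 megareads in genes. Sirt2 was at 62.3 to 85.4 CPM (counts per megaread of scaled library size) in the 6 WT libraries and at 9.04 to 19.7 CPM in the 6 KO libraries. The 7 T cell markers summed to 5563 to 6621 CPM at 0 h and to 2609 to 3003 CPM at 24 h. Sums for other cells were far lower and also moved: the 5 B cell markers went from 16.1 to 29.2 CPM at 0 h to 2.93 to 7.22 CPM at 24 h, and the 3 NK cell markers from 14.1 to 30.1 CPM to 0.201 to 1.72 CPM. Most of the NK sum at 0 h was Klrb1c, at a mean of 16.5 CPM in WT and 21.8 CPM in KO. The 2 CD8 T cell markers summed to 17.3 to 35.8 CPM at 0 h and to 8.09 to 14.7 CPM at 24 h. The 5 dendritic cell markers summed to 1.26 to 7.03 CPM over all libraries, with Zbtb46 at 0 in WT 0 h and Siglech at 0 in WT 24 h. The 4 listed macrophage and monocyte markers summed to 0.746 to 8.04 CPM, with Cd14 at 0 in 3 groups, and the 4 erythroid markers were at 0 in every library. Their part in the results was not tested. The 10 genes took 1.11% to 1.45% of gene reads, and B2m alone took 0.815% to 1.07%.

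The promoters of the genes whose changes are set side by side are given first, from RefSeq (GRCm38.p6), as 250 bases before to 50 bases after the transcription start. Of the 10 genes, 8 matched an entry, and Nlrc5 and Tap2 did not. The windows shown are those of both heavy chains that fell, of B2m that pairs with them, and of Tap1, which rose most in WT. They are H2-K1 (chr17:34000298-34000597, minus strand), H2-D1 (chr17:35262844-35263143, plus strand), B2m (chr2:122147437-122147736, plus strand) and Tap1 (chr17:34187306-34187605, plus strand). Capitals mark the letters of 5 motifs searched on both strands: GAAANNGAAA (interferon-stimulated response element), TTCNNNGAA (gamma-activated site), TGACG (the core of the X2 box), CCAAT (the Y box) and GGGANNNNCC (kappa B).
H2-K1: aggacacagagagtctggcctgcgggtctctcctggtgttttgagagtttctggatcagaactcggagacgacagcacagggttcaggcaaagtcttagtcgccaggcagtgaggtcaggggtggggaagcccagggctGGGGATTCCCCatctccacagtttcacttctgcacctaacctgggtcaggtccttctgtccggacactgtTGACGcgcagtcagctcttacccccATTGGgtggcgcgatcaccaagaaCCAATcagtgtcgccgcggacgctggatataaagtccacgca
H2-D1: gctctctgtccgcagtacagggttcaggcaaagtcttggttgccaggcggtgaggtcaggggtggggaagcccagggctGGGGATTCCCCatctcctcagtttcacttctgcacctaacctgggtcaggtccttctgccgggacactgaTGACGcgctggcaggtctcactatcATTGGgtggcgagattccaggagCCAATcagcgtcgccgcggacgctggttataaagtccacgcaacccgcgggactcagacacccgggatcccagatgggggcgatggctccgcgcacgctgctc
B2m: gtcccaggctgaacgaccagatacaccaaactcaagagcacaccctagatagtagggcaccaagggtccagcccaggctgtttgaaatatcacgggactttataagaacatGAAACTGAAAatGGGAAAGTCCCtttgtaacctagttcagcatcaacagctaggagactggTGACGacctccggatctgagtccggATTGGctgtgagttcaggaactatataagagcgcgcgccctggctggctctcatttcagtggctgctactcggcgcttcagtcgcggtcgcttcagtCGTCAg
Tap1: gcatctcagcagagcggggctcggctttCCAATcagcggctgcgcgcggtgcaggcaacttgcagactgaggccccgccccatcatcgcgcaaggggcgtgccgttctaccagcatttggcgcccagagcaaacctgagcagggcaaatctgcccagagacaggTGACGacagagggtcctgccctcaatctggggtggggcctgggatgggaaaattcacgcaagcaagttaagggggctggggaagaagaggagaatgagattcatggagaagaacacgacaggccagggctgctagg

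The windows of H2-K1 and H2-D1 aligned over 239 bases, of which 214, or 89.5%, were identical, and each held the kappa B, X2 core and Y box letters in that order. Over the 8 windows, CCAAT was found in 6 (37.4% of all 32851 promoters of the table held it), TGACG in 5 (20.8%) and GGGANNNNCC in 3 (20.7%), namely B2m, H2-K1 and H2-D1. GAAANNGAAA was found only in B2m among the 8 (3.44% of all promoters), and TTCNNNGAA only in Psmb8 (8.3%). No 2 different motifs overlapped in these windows, while the kappa B letters matched on both strands at overlapping positions. Tap1 and Psmb9 stand head to head on opposite strands, and their windows share 275 of 300 bases. Their CCAAT and TGACG matches are the same sites, so the counts above hold these sites once for each gene. These are matches of fixed letters in a window, so variants of a motif are missed, and they are no measurement of binding.

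B2m, the light chain shared by all class I molecules, was the most abundant of the 10 and missed the threshold over time. In WT it was at 10024, 9947 and 10043 CPM at 0 h and at 9879.8, 8102 and 9623 CPM at 24 h. The KO libraries read 11331, 9623 and 8866 CPM at 0 h and 8093, 9960.5 and 8545 CPM at 24 h. The WT libraries at 24 h all lay below those at 0 h, while the KO libraries overlapped. The log2 fold change, 24 h over 0 h, was -0.12 in WT (SE 0.102, edgeR adjusted p = 0.364) and -0.16 in KO (SE 0.102, edgeR adjusted p = 0.202). Its sign depends on the scaling: without scaling factors between libraries it was 0.08 in WT and 0.08 in KO, also not past the test.

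H2-K1 and H2-D1, the polymorphic heavy chains of this strain that bind the peptide, both fell over 24 h in both genotypes. H2-K1 in WT was at 1839.5, 1823 and 1924 CPM at 0 h and at 1250.4, 1166 and 1453 CPM at 24 h. Levels in KO were 1898, 1699 and 1792 CPM at 0 h and 1211, 1390.0 and 1327 CPM at 24 h. In each genotype every library at 24 h lay below every library at 0 h. The fall was 1.44-fold in WT (log2 -0.53, SE 0.0886, edgeR adjusted p = 2.99e-06) and 1.37-fold in KO (log2 -0.46, SE 0.0886, edgeR adjusted p = 4.14e-05). In bulk RNA of this kind, fewer cells with the transcript and less transcript per cell cannot be told apart.

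H2-D1 moved with H2-K1 at a lower level. In WT it was at 293, 305 and 254 CPM at 0 h and at 204, 187 and 235 CPM at 24 h. In KO it was at 268, 229 and 294 CPM at 0 h and at 177, 215 and 212 CPM at 24 h. Within each genotype no library at 24 h reached the lowest at 0 h, while WT 24 h replicate 3 lay above KO 0 h replicate 2. The log2 fold change was -0.45 in WT (SE 0.0971, edgeR adjusted p = 0.000201) and -0.39 in KO (SE 0.0982, edgeR adjusted p = 0.00132). Without scaling factors the change in KO was -0.14 and did not pass (edgeR adjusted p = 0.219). The reads of H2-D1 per read of H2-K1 stayed between 0.132 and 0.167 in all 12 libraries. The reads of H2-K1 per read of B2m, a ratio that needs no scaling, went from 0.183 to 0.192 in WT 0 h to 0.127 to 0.151 in WT 24 h, and from 0.167 to 0.202 in KO 0 h to 0.140 to 0.155 in KO 24 h, without overlap between times. Both heavy chains have near-identical relatives, and reads that align to several places were counted for no gene, so the level of each is uncertain.

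**Figure D1:**
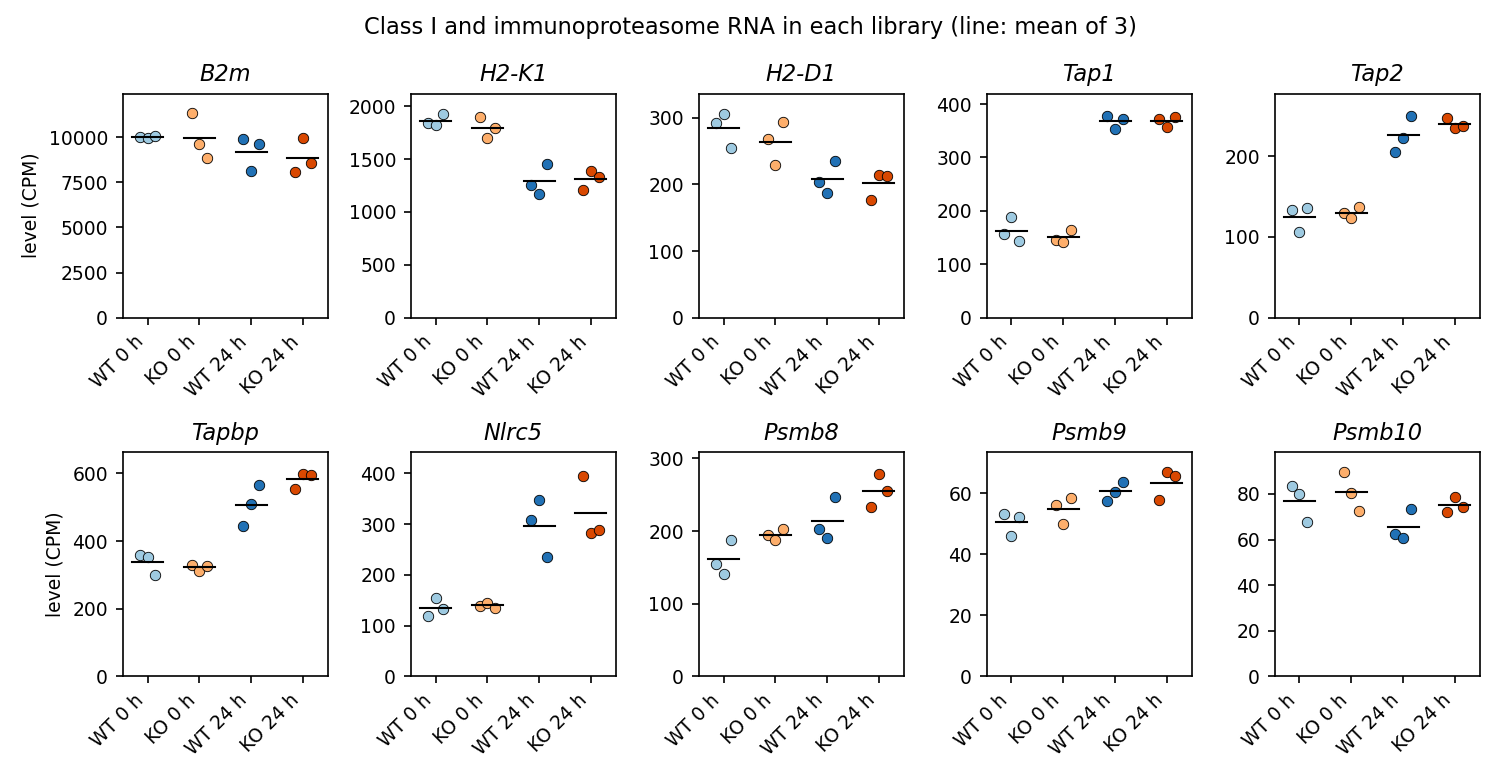
Level of each gene in CPM (linear axes from 0, each with its own range) in the 3 libraries of the 4 groups, with a line at the mean of each group. The 24 h libraries lie above the 0 h libraries of the same genotype for Tap1, Tap2, Tapbp, Nlrc5 and Psmb8 and below them for H2-K1 and H2-D1, while WT and KO libraries of the same time overlap in every panel.

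Tap1, Tap2 and Tapbp, the members for peptide transport and loading, rose in both genotypes. Other genes for peptide loading, not all of which rose, are taken up below. Tap1 and Tap2 encode the subunits of the transporter, and Tapbp encodes tapasin. Tap1 in WT was at 156, 189 and 143 CPM at 0 h and at 377, 354 and 373 CPM at 24 h. The KO libraries read 146, 142 and 165 CPM at 0 h and 372, 358 and 377 CPM at 24 h. The lowest library at 24 h stood well above the highest at 0 h in each genotype. The rise was 2.26-fold in WT (log2 1.17, SE 0.0905, edgeR adjusted p = 5.76e-15) and 2.44-fold in KO (log2 1.29, SE 0.0915, edgeR adjusted p = 3.85e-16).

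Tap2 rose less than Tap1 by its estimate, a difference that was not tested. In WT it was at 134, 106 and 136 CPM at 0 h and at 205, 222 and 249.9 CPM at 24 h. Levels in KO were 129, 123 and 137 CPM at 0 h and 247, 234 and 237 CPM at 24 h. The times did not overlap in either genotype, and the rise was 1.80-fold in WT (log2 0.85, SE 0.0940, edgeR adjusted p = 2.47e-10) and 1.85-fold in KO (log2 0.88, SE 0.0946, edgeR adjusted p = 1.15e-10). Tap1 reads per Tap2 read were 1.05 to 1.78 in WT 0 h and 1.49 to 1.84 in WT 24 h, which overlap, and 1.13 to 1.20 in KO 0 h and 1.51 to 1.59 in KO 24 h, which do not.

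Tapbp in WT was at 359, 352 and 299.6 CPM at 0 h and at 443, 508 and 565 CPM at 24 h. In KO it was at 329, 311 and 325 CPM at 0 h and at 554.8, 599 and 596 CPM at 24 h. All libraries at 24 h lay above all at 0 h. The rise was 1.503-fold in WT (log2 0.59, SE 0.0881, edgeR adjusted p = 3.51e-07) and 1.81-fold in KO (log2 0.86, SE 0.0886, edgeR adjusted p = 4.59e-11). The difference between these rises had the smallest unadjusted p of the 10 in the interaction of genotype and time, but did not pass (log2 0.27, SE 0.124, edgeR adjusted p = 0.932).

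Nlrc5, which encodes the transactivator of class I genes, also rose. In WT it was at 118, 155 and 133 CPM at 0 h and at 309, 347 and 235 CPM at 24 h. The KO libraries read 139, 145 and 135 CPM at 0 h and 396, 283 and 289 CPM at 24 h. The libraries at 24 h were all above those at 0 h but spread more widely, with an SD of 56.7 CPM in WT and 63.2 CPM in KO against 18.3 and 4.81 CPM at 0 h. The rise was 2.19-fold in WT (log2 1.13, SE 0.145, edgeR adjusted p = 6.08e-06) and 2.31-fold in KO (log2 1.21, SE 0.146, edgeR adjusted p = 3.09e-06).

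Of the immunoproteasome's catalytic subunits, Psmb8 rose and Psmb9 and Psmb10 did not pass. Psmb8 takes the place of Psmb5 in the standard proteasome, Psmb9 that of Psmb6 and Psmb10 that of Psmb7. Psmb8 in WT was at 155, 141 and 188 CPM at 0 h and at 202, 190.5 and 247 CPM at 24 h. Levels in KO were 195, 188 and 202 CPM at 0 h and 233, 279 and 255 CPM at 24 h. The times did not overlap within a genotype, though WT 0 h replicate 3 came close to WT 24 h replicate 2. The rise was 1.32-fold in WT (log2 0.40, SE 0.0989, edgeR adjusted p = 0.000873) and 1.31-fold in KO (log2 0.39, SE 0.0987, edgeR adjusted p = 0.00119).

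Psmb9 in WT was at 53.2, 46.1 and 52.2 CPM at 0 h and at 57.5, 60.6 and 63.9 CPM at 24 h. In KO it was at 56.1, 49.9 and 58.4 CPM at 0 h and at 57.8, 67.1 and 65.7 CPM at 24 h. The WT libraries did not overlap between times, and the KO libraries did. The log2 fold change was 0.27 in WT (SE 0.115, edgeR adjusted p = 0.0589) and 0.21 in KO (SE 0.117, edgeR adjusted p = 0.144). The WT change passed without WT 0 h replicate 1 (log2 0.32, edgeR adjusted p = 0.0485), and both passed without scaling factors (0.47 in WT and 0.46 in KO). Although Psmb9 and Tap1 share most of their promoter window, Psmb9 reads per Tap1 read went from 0.244 to 0.365 in WT 0 h to 0.152 to 0.171 in WT 24 h, and from 0.352 to 0.383 to 0.155 to 0.188 in KO.

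Psmb10 had the reverse sign. In WT it was at 83.5, 79.9 and 67.6 CPM at 0 h and at 62.3, 60.5 and 73.4 CPM at 24 h. The KO libraries read 89.7, 80.5 and 72.7 CPM at 0 h and 72.1, 78.8 and 74.1 CPM at 24 h. The times overlapped in both genotypes. The log2 fold change was -0.23 in WT (SE 0.111, edgeR adjusted p = 0.0912) and -0.11 in KO (SE 0.112, edgeR adjusted p = 0.445). The WT value passed without WT 0 h replicate 3 (-0.30, edgeR adjusted p = 0.045) and without WT 24 h replicate 3 (-0.32, edgeR adjusted p = 0.0327). In KO its sign turned to 0.13 without scaling factors.

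**Figure D2:**
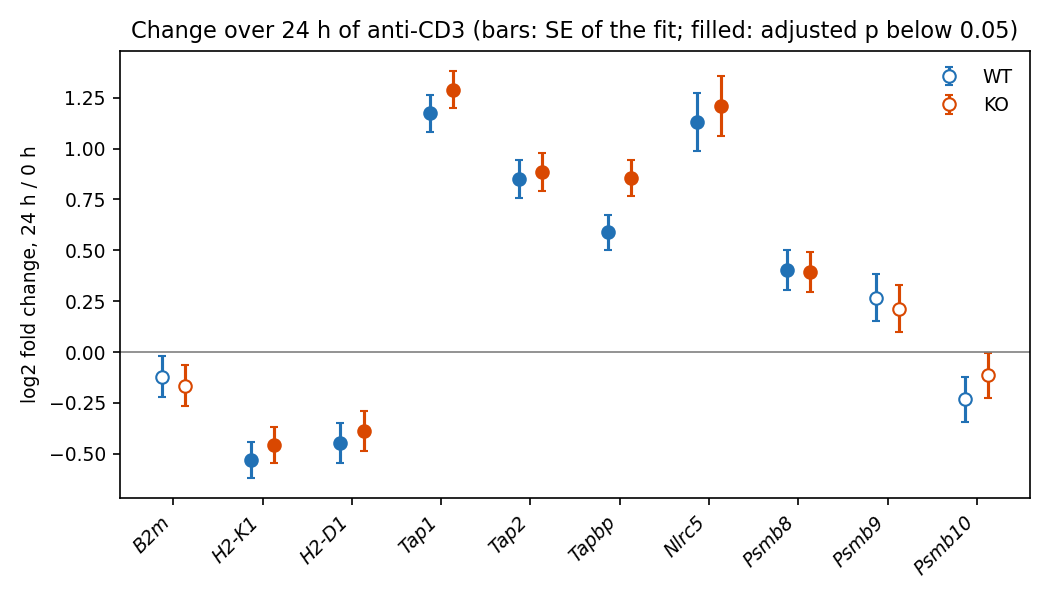
Log2 fold change from 0 h to 24 h of each gene in WT and KO, with bars of 1 SE of the fit; filled points passed at an adjusted p below 0.05. Tap1, Tap2, Tapbp, Nlrc5 and Psmb8 are filled above 0, H2-K1 and H2-D1 are filled below 0, and the remaining 3 are open, in both genotypes.

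Over the 10 genes, 5 rose in WT, where 20.2% of all tested genes rose, and 2 fell, where 20.5% of all tested genes fell. In KO the same 5 rose, against 19.4% of all tested genes, and the same 2 fell, against 21.0%. The median log2 fold change of the 10 was 0.33 in WT and 0.30 in KO, and that of all tested genes was 0.00 in both. The libraries of the 2 times did not overlap for 9 of the 10 in WT, against 49.3% of all tested genes, and for 7 of the 10 in KO, against 49.4%. The WT and KO changes come from separate libraries that were scaled and fitted together. Without scaling factors the median of all genes shifts by 0.20 in WT and 0.24 in KO, and 70.9% of WT calls and 72.6% of KO calls are then rises, against 49.6% and 48% with them, so the falls of H2-K1 and H2-D1 are falls relative to the other RNA of the cells.

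Levels can be compared between genes per kilobase of exon only, using lengths of the GENCODE M21 models. In WT 0 h, B2m was at 11630 ± 59.2 CPM per kilobase (SD, n = 3) and H2-K1 at 634 ± 18.5. H2-D1 was at 110.1 ± 10.2 CPM per kilobase and Tapbp at 92.9 ± 8.96. The light chain stood far above every other member, and H2-D1 and Tapbp overlapped between libraries. Psmb8 (47.7 ± 7.14), Psmb10 (45.2 ± 4.90), Tap2 (33.1 ± 4.33) and Tap1 (29.8 ± 4.36) followed on the same scale. Psmb8 and Psmb10 overlapped between libraries, as did Tap2 and Tap1. Nlrc5 (15.95 ± 2.16) and Psmb9 (13.8 ± 1.04) were lowest, also with overlap. By the length of the longest transcript instead, H2-K1 was at 994 CPM per kilobase, and Psmb8 (84.5 ± 12.7) stood further above Psmb10 (58.7 ± 6.37). Tap1 (41.6 ± 6.10) then stood above Tap2 (36.4 ± 4.75). The order of Tap1 and Tap2 and the gap between Psmb8 and Psmb10 thus depend on the length used. Which transcripts were present was not measured, so every rank, that of Psmb9 included, holds only for the lengths used. In WT 24 h Tap1 (67.2 ± 2.27) and Tap2 (59.7 ± 5.95) overlapped by exon length (64.6 to 68.8 against 54.3 to 66.1), and by the longest transcript they were at 94.0 ± 3.18 and 65.6 ± 6.53.

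Between the genotypes, no member passed at 0 h, where 0.346% of all tested genes passed, and none passed at 24 h, where 0.273% did. DESeq2 called none of the 10 either. At an unadjusted p below 0.05, edgeR gave 1 of the 10 at 0 h, Psmb8, against 8.00% of all tested genes, and 2 at 24 h, Psmb8 and Tapbp, against 7.06%. KO and WT libraries overlapped for all 10 at both times, while 12.4% of tested genes at 0 h and 12.9% at 24 h did not overlap. Psmb8 had the largest difference at both times, with a mean of 195 ± 7.34 CPM in KO 0 h (SD, n = 3) against 161 ± 24.1 in WT 0 h (log2 0.27, 95% interval 0.07 to 0.47, edgeR adjusted p = 0.382). At 24 h it was at 256 ± 22.9 CPM in KO against 213 ± 29.8 in WT (log2 0.26, 95% interval 0.06 to 0.46, edgeR adjusted p = 0.525). Tapbp at 24 h was at 583 ± 24.7 CPM in KO against 506 ± 61.0 in WT (log2 0.20, 95% interval 0.03 to 0.38, edgeR adjusted p = 0.609).

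The intervals, which are not adjusted for the number of genes tested, show the range of differences that fit these libraries. For H2-K1 the 95% interval of the log2 difference of KO from WT was -0.23 to 0.13 at 0 h and -0.16 to 0.20 at 24 h. For B2m it was -0.21 to 0.20 and -0.26 to 0.15, and for Tap1 -0.29 to 0.07 and -0.17 to 0.18. Nlrc5 had the widest, from -0.27 to 0.35 at 0 h and from -0.18 to 0.42 at 24 h. The median log2 difference of the 10 was 0.02 at 0 h and 0.07 at 24 h, against 0.00 and -0.01 over all tested genes. The interaction of genotype and time passed for none of the 10, and for 0.00911% of all tested genes. At an unadjusted p below 0.05 it gave 1 of the 10, Tapbp, against 5.24% of all tested genes. At 0 h the CD8 T cell markers Cd8a and Cd8b1 summed to 30.8 to 35.8 CPM in KO and to 17.3 to 18.5 CPM in WT, and the NK cell markers to 19.8 to 30.1 CPM in KO and 14.1 to 18.9 CPM in WT. The CD8 sum was almost all Cd8b1 (mean 31.5 CPM in KO and 17.4 in WT), while Cd8a was at 1.16 and 0.680 CPM. The NK sum was mostly Klrb1c (21.8 CPM in KO and 16.5 in WT), with Ncr1 at 1.47 and 0.250 and Klre1 at 0.941 and 0.266 CPM. The part of such cells in the genotype values was not tested.

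**Figure D3:**
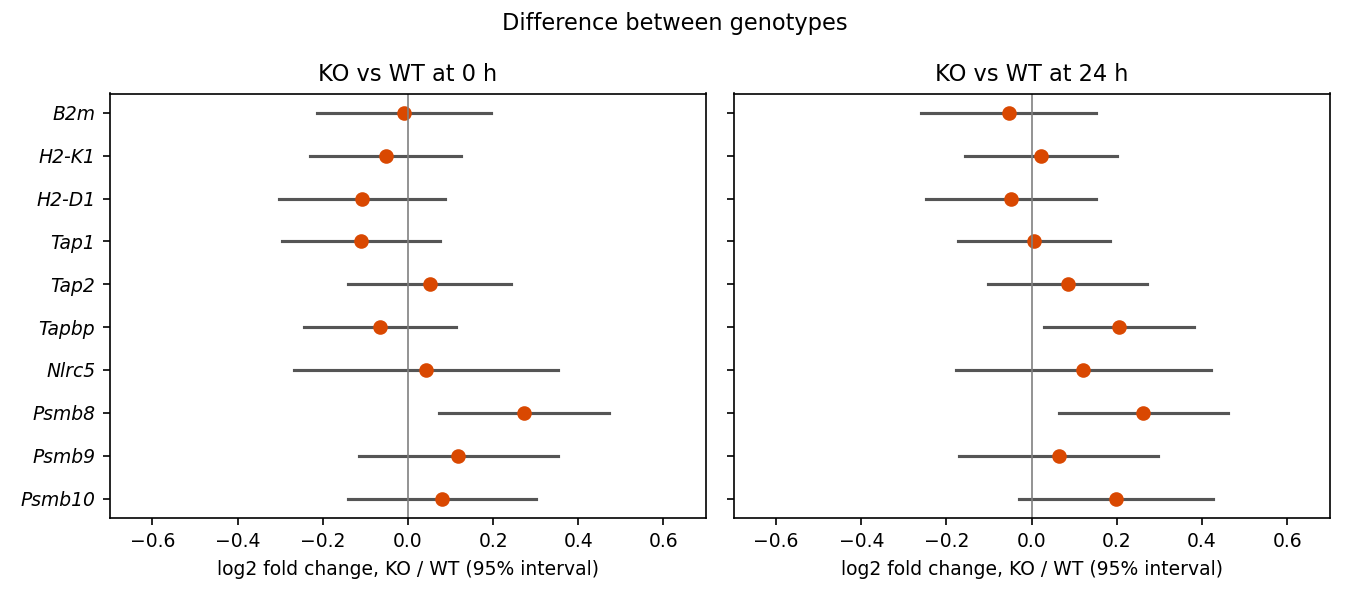
Log2 fold change of KO over WT for each gene at 0 h and at 24 h, with the 95% interval of the fit. The values lie between -0.11 and 0.27, and no gene passed after adjustment, Psmb8 at both times and Tapbp at 24 h being those whose unadjusted interval leaves out 0.

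The standard subunits that the immunoproteasome subunits replace behaved differently from each other. Psmb5 rose from 18.9, 17.9 and 16.5 CPM in WT 0 h to 25.5, 27.2 and 28.5 CPM in WT 24 h (log2 0.61, SE 0.162, edgeR adjusted p = 0.00188). It also rose in KO (log2 0.45, SE 0.164, edgeR adjusted p = 0.0243). Psmb6 did not pass, with a log2 fold change of -0.05 in WT and -0.13 in KO, and Psmb7 did not, with 0.05 in WT and 0.00 in KO. The reads of Psmb9 per read of Psmb6 were 0.638, 0.578 and 0.620 in WT 0 h and 0.711, 0.785 and 0.784 in WT 24 h, without overlap. In KO they were 0.626 to 0.831 at 0 h and 0.802 to 0.981 at 24 h, with overlap. Psmb10 per Psmb7 was 0.849 to 0.904 in WT 0 h and 0.676 to 0.797 in WT 24 h, and 0.854 to 0.984 and 0.819 to 0.851 in KO, lower at 24 h without overlap in both. Psmb8 per Psmb5 was 7.88 to 11.4 in WT 0 h and 7 to 8.68 in WT 24 h, which overlap, as do 9.59 to 10.4 and 8.28 to 11.01 in KO. The ratio of inducible to standard subunit had no common direction over the 3 pairs. With 3 libraries against 3, an exact two-sided permutation test cannot give a p below 0.1, and none is given for these ratios.

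**Figure D4:**
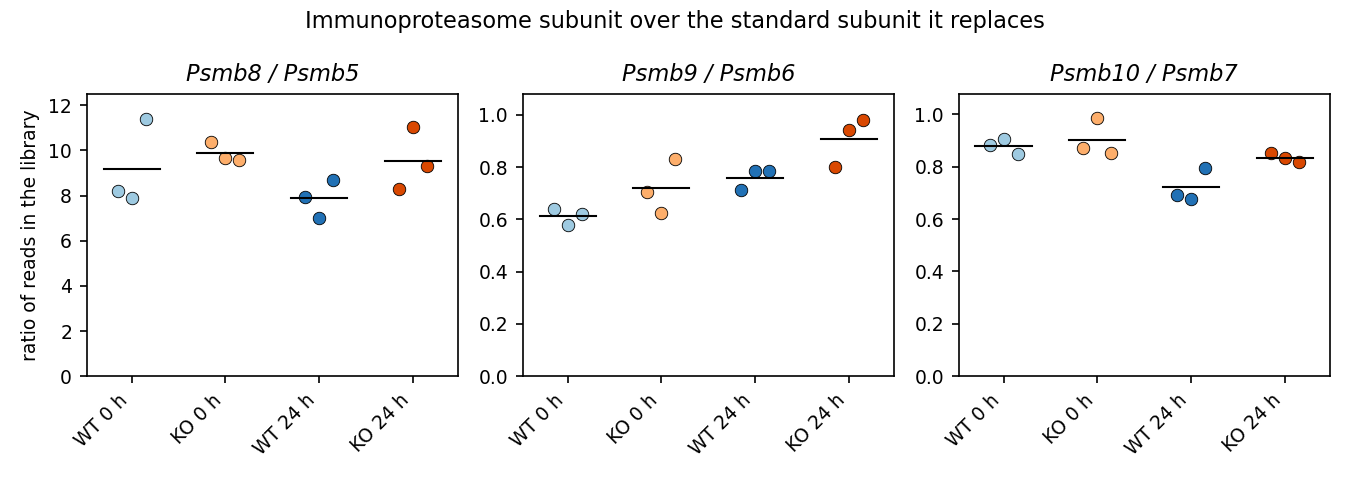
Reads of each immunoproteasome subunit per read of the standard subunit it replaces, by library (linear axes from 0), with a line at the mean of each group. Psmb9 per Psmb6 is higher at 24 h, without overlap in WT, Psmb10 per Psmb7 is lower at 24 h, and Psmb8 per Psmb5 overlaps between times.

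The list of standard proteasome partners held Psmb5, Psmb6 and Psmb7 with 4 activator genes and the assembly factor gene Pomp. In WT, 4 of the 8 genes rose and none fell, against 20.2% and 20.5% of all tested genes, with a list median of 0.32. In KO 5 rose and none fell, against 19.4% and 21.0%, with a median of 0.39. Psme3, a nuclear proteasome activator, had a log2 fold change of 0.80 in WT (SE 0.0864, edgeR adjusted p = 1.27e-10) and 0.73 in KO. Psme4, a further activator, rose by 0.74 in WT and 0.69 in KO on the log2 scale, and Psme1, a subunit of the interferon-inducible activator, by 0.47 and 0.56. Its partner Psme2 did not pass in WT (0.17) and rose in KO (0.32).

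Of 12 genes for peptide trimming and loading, 7 rose and none fell in WT (20.2% and 20.5% of all tested genes), and 4 rose and 1 fell in KO (19.4% and 21.0%). The list medians were 0.26 and 0.12. The cytosolic peptidase genes Thop1 and Lap3 led, with Thop1 going from 4.99 to 7.79 CPM in WT 0 h to 18.9 to 23.3 CPM in WT 24 h (log2 1.60, SE 0.235, edgeR adjusted p = 2.30e-07) and changing by 1.44 in KO. Lap3 rose by 1.17 in WT and 0.80 in KO on the log2 scale. Tapbpl, a relative of tapasin that edits peptides, rose by 0.67 and 0.71, and the peptidase gene Blmh rose by 0.54 in WT but did not pass in KO (0.12). Bcap31, an export receptor of the endoplasmic reticulum, fell by 0.41 in KO and did not pass in WT (-0.29). These differences between the genotypes were tested as an interaction, and no gene of the list passed, while 0.00911% of all tested genes did.

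Of 21 non-classical and class I-like genes, 9 had enough reads to test. In WT 3 of the 9 rose and 3 fell (20.2% and 20.5% of all tested genes), and in KO 3 rose and 1 fell (19.4% and 21.0%). The medians were 0.14 in WT and -0.11 in KO, and without scaling factors 0.34 and 0.14. The difference between these medians was not tested. H2-T24 went from 33.2 to 41.2 CPM in WT 0 h to 109 to 110.3 CPM in WT 24 h (log2 1.55, SE 0.106, edgeR adjusted p = 1.33e-16) and changed by 1.61 in KO. H2-T23, which encodes Qa-1, the ligand of the NK cell receptor NKG2A, rose by 0.80 in WT and 0.97 in KO, and H2-Q4 by 0.35 and 0.26. So these genes rose while the classical heavy chains fell. Fcgrt, the neonatal Fc receptor, fell in WT from few reads (16 to 25 per library to 1 to 6; log2 -2.65, SE 0.660, edgeR adjusted p = 0.00103) and did not pass in KO (-0.99). H2-K2 fell by 0.71 in WT and did not pass in KO (-0.35). Mr1, which presents vitamin B metabolites, fell by 0.58 in WT and by 1.27 in KO. H2-Q6, H2-Q7, H2-T3, H2-T9, H2-M2 and H2-M5 were listed at 0 in every library, and the H2-Q, H2-T and H2-K2 values are uncertain because these genes have near-identical copies.

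The last list held regulators of class I transcription and of interferon gamma signalling. In WT 11 of 23 rose, against 20.2% of all tested genes, and 5 fell, against 20.5%, with a median of 0.47. In KO 12 rose, against 19.4%, and 4 fell, against 21.0%, with a median of 0.42. The falls were near the share of all genes. Creb1, Rfx5, the kinase gene Jak1 and Ifngr2, the other chain of the interferon gamma receptor, fell in both genotypes, and Rfxap fell in WT. Irf8, an interferon regulatory factor, went from 11.9 to 13.02 CPM in WT 0 h to 74.5 to 102 CPM in WT 24 h (log2 2.80, SE 0.146, edgeR adjusted p = 8.01e-21) and rose by 2.79 in KO. Socs1, a feedback inhibitor of JAK kinases, rose by 2.81 in WT and 2.99 in KO. Irf1, a factor that binds class I promoters, rose by 1.61 and 2.01, and Ifngr1, a chain of the interferon gamma receptor, by 1.94 and 1.88. Ciita, the relative of Nlrc5 that acts on class II genes, stayed under 3 mean CPM and passed in KO (log2 2.58, SE 0.749, edgeR adjusted p = 0.00476) and not in WT (1.19). Ifng itself did not pass: it was at 14.03 to 25.7 CPM in WT 0 h and at 12.9, 21.0 and 60.7 CPM in WT 24 h (log2 0.76, SE 0.519, edgeR adjusted p = 0.288), and at 14.04 to 19.6 and 30.6 to 43.2 CPM in KO (log2 1.18, edgeR adjusted p = 0.117).

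In edgeR, 0.346% of all tested genes passed between genotypes at 0 h, 0.273% at 24 h and 0.00911% in the interaction. None of these 4 lists held a gene that passed. DESeq2 called 1, Irf1, lower in KO at 0 h (log2 -0.32, SE 0.0795, DESeq2 adjusted p = 0.0206), where edgeR gave a log2 difference of -0.32 and an adjusted p of 0.0999. Their median log2 differences of KO from WT lay between -0.05 and 0.13 at 0 h and between -0.08 and 0.15 at 24 h. At an unadjusted edgeR p below 0.05 and 0 h, 0 of 8 partners, 1 of 12 trimming and loading genes, 1 of 9 non-classical genes and 2 of 23 regulators passed. The share of all tested genes was 8.00%. At 24 h the counts were 0 of 8, 1 of 12, 3 of 9 and 4 of 23, against 7.06% of all tested genes. Without scaling factors more genes of these lists counted as risers over time. Over all tested genes, 70.9% of WT calls and 72.6% of KO calls were then rises. Of the genes named above, Psmb7 and Psme2 then passed as higher in WT and Pomp in both genotypes, and the falls of Mr1 in WT and of Bcap31 in KO did not pass. Nor did the falls of Ifngr2 and Rfx5 in both genotypes and of Creb1 in KO. With RLE factors, with DESeq2 or without the ribosomal RNA precursor Rn45s, the fall of Ifngr2 in KO did not pass either. The shift of all genes with the scaling is larger than the values of Psmb6 and Psmb7, whose signs are therefore uncertain.

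**Figure D5:**
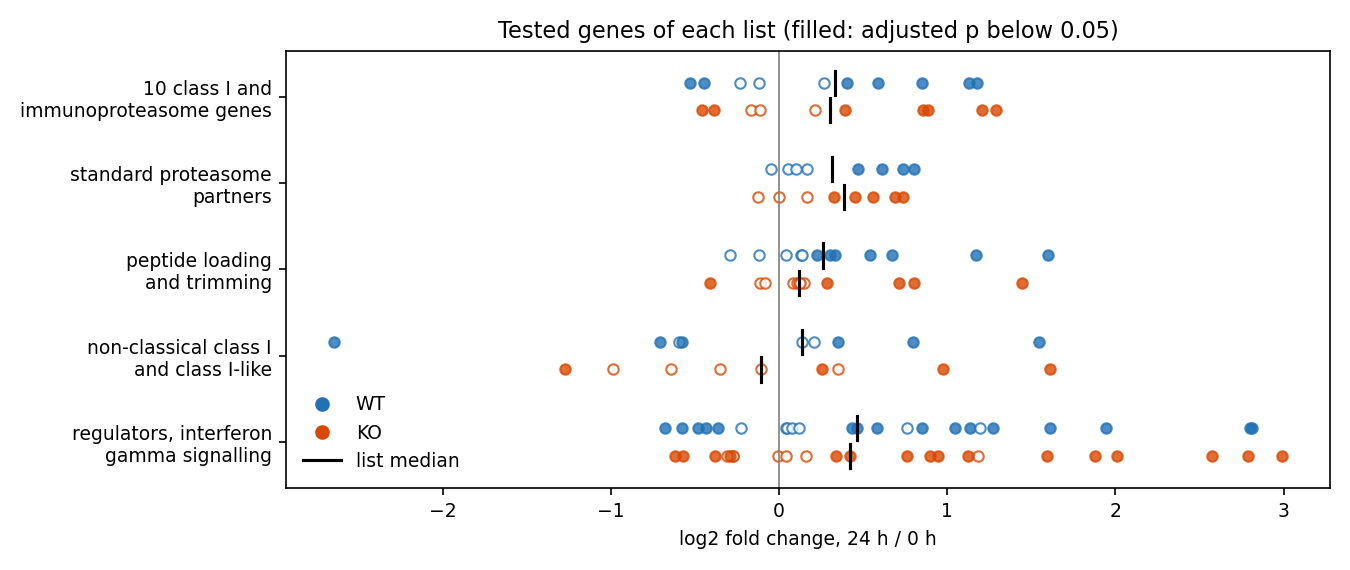
Log2 fold change from 0 h to 24 h of each tested gene of the 5 lists in WT and KO; filled points passed at an adjusted p below 0.05 and bars mark the median of each list. Regulators reach the highest values, up to 2.99 for Socs1 in KO, and the lowest value is -2.65 for Fcgrt in WT.

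The patterns across all 12 libraries were compared by the root mean square difference of log2 CPM after each gene was centred on its own mean, as a description over libraries that fall into 2 times. Among the 10980 other tested genes, the nearest to Tap1 were Tmie (0.0987), Sept11 (0.105) and Rbl1 (0.118), and Nlrc5 was the member nearest to it, at rank 80. The nearest to Nlrc5 were Adamts6 (0.119), Inpp4b (0.123) and Map3k5 (0.131), with Tap1 at rank 23. Those nearest to Tap2 were Mov10 (0.0804), Sars (0.0815) and Rpl7l1 (0.0847), with Tapbp at rank 81. Those nearest to Tapbp were Ahcyl1 (0.0888), Ccnd2 (0.107) and Psmd11 (0.108), with Tap2 at rank 101. H2-K1 stood at rank 18 for H2-D1 and H2-D1 at rank 103 for H2-K1. Psmb9 stood at rank 21 for Psmb8 and Psmb8 at rank 577 for Psmb9. The member nearest to Psmb10 was B2m, at rank 126. No member was the nearest gene of another. The median rank of the 9 other members was 2406 for Tap1 and 6737 for H2-K1.

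The counts give 1 value per symbol, and the strand setting is not given in the sources used here, so genes that share exons are uncertain. By the GENCODE models, exons of Tap1 and Psmb9 overlap over 212 bases on opposite strands. Exons of Tap2 overlap Gm15821 and Gm20496, those of Tapbp overlap Gm19412 and Zbtb22, those of Nlrc5 overlap 9330175E14Rik and those of Psmb8 overlap Gm20496. B2m, H2-K1, H2-D1 and Psmb10 share no exon with another gene there.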

How the data were processed

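RNA was measured in 12 libraries of total RNA from mouse CD4+ T cells, 4 groups of 3, and the titles gave the group and replicate number of each. The deposited values are read counts per gene symbol, 1 table per library. The submitters' processing notes name STAR 2.6.0c, DESeq and the build hg19, a human build although the symbols are mouse ones, which leaves the true build uncertain. Each table also had 5 entries that name no gene, left out of library sizes and tests. Reads aligned to several places, counted for no gene, made up 25.7% to 30.9% of all listed reads, reads in no feature 22.8% to 35.4% and ambiguous reads 0.412% to 0.576%.

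Genes were kept by filterByExpr (minimum count 10, minimum total 15), counts were scaled with TMM factors, and the quasi-likelihood test of edgeR 4.0.16 (R 4.3.3, robust) was fitted once over the 4 groups without covariates. The Benjamini-Hochberg adjustment ran over the 10981 genes tested, and a gene passed below 0.05. CPM are counts per megaread of scaled library size. The common biological coefficient of variation was 0.115, and replicates of every group differed by more than sampling noise (chi-square per gene 3.15 to 14.7). The script was tested on simulated data. The depth of 3.63 to 10.0 megareads in genes left each of the 10 genes with at least 264 reads in every library.

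The 10 genes and the other lists were chosen with earlier results of these data known. All 10 genes are named in each comparison. Of each other list, up to 4 genes that passed with the largest change are named, or up to 2 with the highest level where none passed, and Psmb5, Psmb6 and Psmb7 always. Outside this rule, Psme2, Pomp, Ifng and the regulators that fell (Creb1, Ifngr2, Jak1, Rfx5 and Rfxap) are also named. Nearest patterns are given for the 4 genes with the largest change in WT. Alternatives were RLE factors, DESeq2 1.42.0, no filter, leaving out the ribosomal RNA precursor Rn45s (7.95% to 17.5% of gene reads), a replicate block, fits of only the groups compared, leaving out each library, the longest transcript as length and, chosen after seeing the data, no scaling factors. Promoters come from RefSeq (GRCm38.p6) and gene lengths from GENCODE M21.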

Additional observations from a re-analysis of the deposited data

How the results depend on the processing

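The 7 calls over time and the absence of calls between genotypes kept their side of the threshold in both genotypes with RLE factors, DESeq2, no filter, without Rn45s and in fits of only the groups compared. Deviations of same-numbered libraries from their group means correlated at -0.0884 to 0.0934 over 18 pairs. Those of other pairs correlated at -0.131 to 0.129 over 36 pairs. Between the 2 times the same-numbered values were 0.0139, 0.0763 and 0.0934 in WT and 0.0477, -0.0022 and 0.0337 in KO. With 3 libraries a group, such values cannot decide whether same-numbered libraries share a mouse or batch. The fit with a replicate block called 7, 7, 0, 0 and 0 of the 10 genes, as without it. With 1 library left out, 7 to 8 genes were called over time in WT, 7 in KO and 0 in the other comparisons. Without scaling factors 8 and 7 were called, and the signs of some uncalled values turned: B2m over time (0.0805 in WT, 0.0751 in KO), Psmb10 over time in KO (0.127), B2m in KO against WT (0.0081 at 0 h, 0.0027 at 24 h), H2-D1 in KO against WT at 24 h (0.0090) and the Psmb8 interaction (0.0292). The cause was not tested. With libraries left out, uncalled log2 values changed sign within these ranges. Over time in KO, Psmb10 ranged from -0.157 to 0.00039. For KO against WT at 0 h the ranges were -0.121 to 0.0654 for B2m, -0.0452 to 0.144 for Nlrc5, -0.0099 to 0.149 for Psmb10, -0.197 to 0.0081 for Tap1 and -0.0599 to 0.116 for Tap2. At 24 h they were -0.148 to 0.0059 for B2m, -0.128 to 0.0464 for H2-D1, -0.0486 to 0.116 for H2-K1, -0.0550 to 0.249 for Nlrc5 and -0.0254 to 0.0248 for Tap1. For the interaction they were -0.139 to 0.0757 for B2m, -0.0206 to 0.154 for H2-D1, -0.0982 to 0.206 for Nlrc5, -0.128 to 0.109 for Psmb8, -0.105 to 0.0212 for Psmb9 and -0.0317 to 0.153 for Tap2. Over all genes, 38 passed for KO against WT at 0 h, against 59 with no filter, 24 in the fit of only these groups and 17 to 33 with 1 library left out. At 24 h 30 passed, against 48 without scaling factors and 14 to 30 with 1 library left out. For the interaction 1 passed, against 3 with no filter and 0 without scaling factors. Depth and 3 libraries a group limit small genotype differences, whose intervals are given above.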
